A study of Homo sapiens with 10 samples.

Results

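C-to-U editing was compared between 2 RNA-seq libraries of HUDEP-2, a line of immortalised human erythroid progenitors. In 1 library the cells expressed FAM46C joined to the cytidine deaminase APOBEC1 through a linker of 7 aa. In the other they expressed GFP joined to APOBEC1 through a linker of the same length. These 2 of the 10 libraries of the series are the only APOBEC1 pair whose linkers match. Positions listed in both libraries were joined, which gave 17785, and 15079 sites with at least 10 reads in both were kept, of 18071 positions in all APOBEC1 tables. The sites fell in 4398 genes, and 72 of them lay outside any gene.

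The 2 genotypes were TRE-FAM46C-7aa-APOBEC1 and TRE-GFP-7aa-APOBEC1, where TRE is a promoter switched on by doxycycline. Both therefore carried an overexpressed deaminase in the same line, in cells that have their own FAM46C gene. The sample labels give doxycycline for 48 h and the series text gives 24 h. Poly(A) RNA was sequenced, with 1 library per construct, so no difference here has a replicate check. A test on the reads compares these 2 libraries, not the constructs. Fewer transcripts near the fusion and fewer edits per transcript cannot be told apart in such bulk reads.

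FAM46C, whose gene symbol is TENT5C, is a non-canonical poly(A) polymerase that adds adenosines to the tails of cytoplasmic mRNA. It is known for its role in plasma cells, where it acts on mRNAs of secreted proteins at the endoplasmic reticulum, and for its expression in erythroid cells. APOBEC1 deaminates C to U in RNA, prefers a C that follows A or U in A- and U-rich sequence, and in the intestine edits the apolipoprotein B mRNA. Joined to another protein, it leaves edits on the RNA which that protein comes close to. Free or GFP-joined APOBEC1 edits many transcripts too, and the GFP library gives that background.

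The sites with some of the largest differences are shown first, since they show which C was read as T and what lies around it. Each is a stretch of a GENCODE release 29 transcript (GRCh38), 5′ to 3′, with 14 bases on each side of the site, and the capital marks the edited C. All lie in the 3′ UTR of the last exon. In the first 10 the edited share was higher with FAM46C, and in the last 3 it was lower.
BUD23, chr7:73697932-73697960, + strand: tattgttcagctgaCaaagtagtatttta
ECH1, chr19:38815470-38815498, - strand: ttataactttatgaCaatgagtttctcaa
GNAS, chr20:58911109-58911137, + strand: tgaaataaaagaaaCaaatgaaataaata
GNAS, chr20:58910881-58910909, + strand: gaaacgtaattgtaCaagcagttaatcac
UBB, chr17:16382625-16382653, + strand: cagtgatggcattaCtctgcactatagcc
HBB, chr11:5225524-5225552, - strand: cctaagtccaactaCtaaactgggggata
RHAG, chr6:49605245-49605273, - strand: cttttgcatgttgaCtatttgcaacgagc
PKM, chr15:72199081-72199109, - strand: attttcccccactaCtgcagcacctccag
CDK4, chr12:57748369-57748397, - strand: tgctgccttaatgaCattcccctcccacc
FUNDC2, chrX:155054878-155054906, + strand: ctctcctcccagtaCaccccctacttggc
SRSF1, chr17:58004310-58004338, - strand: gatttagttttagaCttaggtgggtagca
LAPTM5, chr1:30733242-30733270, - strand: tgataaatagaataCacagaatagtgatg
PCNP, chr3:101593724-101593752, + strand: caatttgaattgaaCttaactatcggctt
In all 13 the base before the C is A. The 28 flanking bases hold 25 A or T at the GNAS site nearer the transcript end and 11 at the FUNDC2 site.

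Over their listed positions the GFP file held 677010 reads and the FAM46C file 749000. At the kept sites the median was 38 reads with GFP and 42 with FAM46C, and no site exceeded 308. No position was listed with fewer than 2 edited reads in its best APOBEC1 library, and at 72.3% of the sites that library had exactly 2. On the transcript strand 98.4% of 14863 exonic sites had C, and 5.56% of all sites lay in more than 1 gene. Strand is not stated, so reads of a gene and of one that overlaps it, antisense ones included, cannot be separated. Of 10 erythroid marker genes 5 had kept sites, HBB, HBG1, HBG2 and ALAS2 among them, with 1987 reads with GFP and 2115 with FAM46C. Of 16 markers of other blood lineages only ITGA2B, a platelet integrin that progenitors also carry, had any, with 41 and 35 reads. A gene without a kept site may still be expressed.

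The TENT5C gene itself checks the labels. Its coding site in exon 2 of 2, at position 117623069 of chromosome 1, had none of 45 reads edited with GFP, which allows a share of up to 6.67%. With FAM46C 95.7% of 233 reads had T in place of C (95% Wilson interval 92.3 to 97.7). The share was 96.6%, 94.7% and 93.6% with the FAM46C fusions of 27, 52 and 74 aa. TENT5C had 64 reads in all with GFP and 250 with FAM46C. Whether these reads came from the construct or from the cell's own gene was not tested. Nor was it tested whether the T at the coding site arose by editing. The only kept site in its 3′ UTR had 10.5% of 19 reads edited with GFP and none of 17 with FAM46C, so a gene total from the 3′ UTR alone was lower by 10.5 percentage points (adjusted p = 0.764, two-sided Fisher's exact test).

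Over all kept sites the edited share was higher with FAM46C. It was 2.68% with GFP (17714 of 661872 reads, 95% Wilson interval 2.64 to 2.72) and 3.95% with FAM46C (28912 of 732092 reads, 3.90 to 3.99). The ratio was 1.48 (95% interval 1.45 to 1.50). All intervals cover counting error only, because without molecular identifiers several reads can stem from 1 molecule, and because neighbouring sites share reads. With FAM46C the share was higher at 6906 sites, lower at 4848 and equal at 3325. Edited reads were seen in both libraries at 3856 sites, only with FAM46C at 4658 and only with GFP at 3266. Only 1 of the 5 APOBEC1 libraries carried GFP. A position could thus be listed through edits with FAM46C fusions alone, which can tilt these counts and the ratio toward FAM46C. The ratios by region, distance and flanking sequence below are open to the same tilt, which can differ between classes. How far it goes was not tested.

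The difference was unevenly spread over transcript regions. In the 3′ UTR, which held 10188 sites, the share was 3.25% with GFP and 4.84% with FAM46C, a ratio of 1.49 (1.46 to 1.52). In coding sequence, with 4213 sites, it was 1.35% and 1.61%, a ratio of 1.19 (1.13 to 1.26). Without the TENT5C site the coding ratio was 1.10 (1.04 to 1.16). The interval of the 3′ UTR ratio lay wholly above that of coding sequence with and without this site. In 5′ UTRs the ratio was 1.09 (0.860 to 1.37) over 260 sites and in non-coding exons 1.09 (0.899 to 1.31) over 202. Neither of these 2 intervals excludes equal shares. With at least 50 reads per site the 5′ UTR ratio turned to 0.459 (0.263 to 0.803) over 42 sites. That of non-coding exons was then 1.62 (1.20 to 2.18) over 35 sites, an interval above equal shares. The 144 intronic sites, in 47 genes, had 2.37% with GFP and 3.41% with FAM46C. Their ratio of 1.44 (1.24 to 1.67) was close to that of the 3′ UTR.

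Within the 3′ UTR the 2 libraries differed most near the end of the transcript, where the poly(A) tail begins. Under 50 nt from the annotated end the edited share was 2.18% with GFP (95% Wilson interval 1.95 to 2.43) and 8.28% with FAM46C (7.84 to 8.74), over 390 sites. From 50 to 99 nt it was 2.14% and 7.45%, over 863 sites. The ratios of these 2 classes were 3.80 (3.37 to 4.30) and 3.48 (3.22 to 3.77). The ratio was 2.24 from 100 nt to under 200 nt and 1.72 from there to under 400 nt. Beyond 400 nt it lay between 1.12 and 1.14 in all 3 classes, and at 1600 nt or more the shares were 3.48% and 3.89%. The GFP share was lowest under 100 nt and highest, at 3.94%, from 400 nt to under 800 nt, while the FAM46C share was highest next to the end. From 400 nt outwards both shares fell, with GFP to 3.72% and then 3.48%, and with FAM46C from 4.49% to 4.15% and then 3.89%. Each distance runs to the end of 1 annotated transcript, chosen site by site, so sites of 1 gene can be measured to different ends. Measured to the nearest annotated end of the gene, the ratio under 50 nt was 2.34 and the ratio from 800 nt to under 1600 nt was 0.905.

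**Figure D1:**
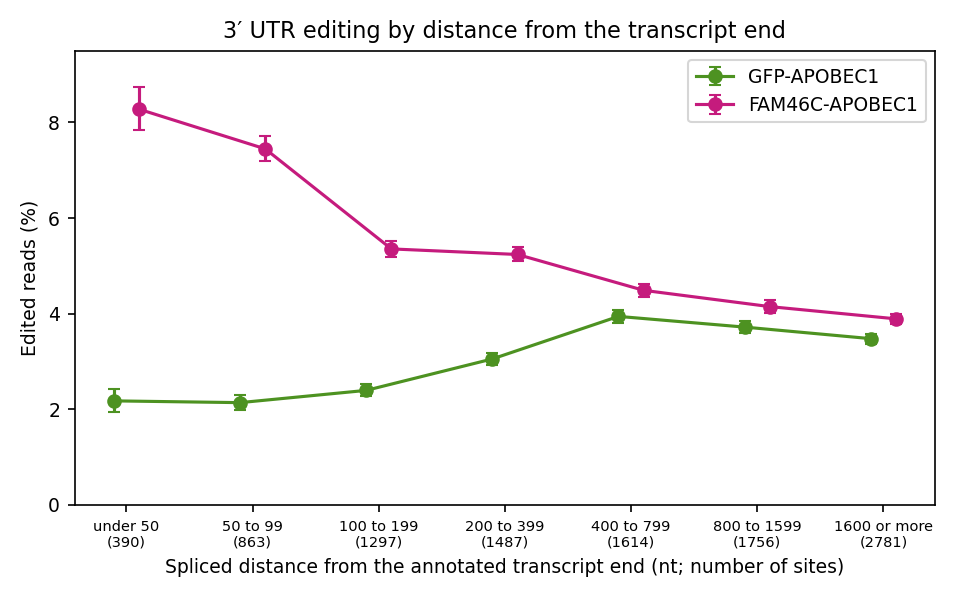
Edited reads in percent (y axis) at 3′ UTR sites by spliced distance from the annotated transcript end in nt (x axis, with the number of sites), for the GFP-APOBEC1 and FAM46C-APOBEC1 libraries of the 7 aa linker. Bars are 95% Wilson intervals of the pooled reads. The libraries stand at 2.18% and 8.28% under 50 nt and at 3.48% and 3.89% at 1600 nt or more.

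Near and far sites mostly come from different genes, so genes with kept 3′ UTR sites on both sides were also compared with themselves. In 263 genes with sites under 200 nt and sites at 400 nt or more, the near sites had an odds ratio of 1.80 (Mantel-Haenszel over genes, 1.65 to 1.98) and the far sites 0.994 (0.943 to 1.05). The near share went from 2.82% with GFP to 5.10% with FAM46C, and the far share from 3.98% to 3.96%. Near sites were higher with FAM46C in 174 genes and lower in 75. Far sites were higher in 133 and lower in 119. The near difference exceeded the far one in 156 genes, and the reverse held in 107. This contrast was not seen among well-covered sites: with at least 50 reads per site, 50 genes were left, with odds ratios of 1.19 (1.01 to 1.42) near the end and 1.23 (1.12 to 1.34) far from it.

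The sequence around the C was compared at 14619 sites with C and full flanks. A C after A made up 63.9% of sites and had 3.32% of reads edited with GFP and 4.91% with FAM46C, a ratio of 1.48 (1.45 to 1.51). A C after T had 1.91% and 2.82%, also a ratio of 1.48. A C after G had 1.23% and 1.33%, a ratio of 1.08 (0.988 to 1.18), and a C after C 1.16% and 1.29%, a ratio of 1.11 (0.960 to 1.29). The base before the C and the region go together, since only 27 of the sites after G and 12 of those after C lay under 200 nt from the end. In the 3′ UTR under 200 nt the ratio was 2.66 (1.34 to 5.28) after G, 2.73 after A and 3.14 after T. After C its interval was 1.45 to 28.2, from 2 edited reads with GFP and 13 with FAM46C. The smaller ratio after G over all sites was thus not seen near the end. At 400 nt or more the ratio was 1.14 after A, 1.02 after T, 1.17 after G and 0.84 after C. There the intervals after T, G and C included equal shares. In coding sequence the ratio was 1.28 (1.18 to 1.39) after A with the TENT5C site and 1.05 (0.959 to 1.15) without it, an interval that includes equal shares. After T it was 1.08 (0.935 to 1.24).

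In the 3′ UTR, both near the end and far from it, the ratio between the libraries was larger where the flanks held fewer A and T. Among 3′ UTR sites under 200 nt from the end it was 4.95 (3.73 to 6.59) with at most 11 A or T in the 28 flanking bases and 2.52 (2.34 to 2.72) with 21 or more. At 400 nt or more it was 2.06 (1.66 to 2.56) and 1.03 (0.987 to 1.07). The GFP share rose with A and T content in both, from 1.13% to 2.72% near the end and from 1.92% to 4.23% far from it. The FAM46C share changed less, from 5.62% to 6.87% near the end and from 3.96% to 4.35% far from it. A position with few GFP edits may be listed through FAM46C fusions alone, and what this does to these ratios was not tested. Over the sites of all regions the order differed: the ratio was 1.65 (1.52 to 1.79) with at most 11 A or T, below the 2.11 (1.97 to 2.25) with 12 to 14. The latter class holds the TENT5C coding site, and its ratio in coding sequence was 1.54 with that site and 1.14 without it. Without that site the coding ratio was 1.20 with at most 11 A or T, 0.896 with 18 to 20 and 0.958 with 21 or more. The PKM, CDK4 and FUNDC2 sites printed above, with 13, 13 and 11 A or T, are examples with few.

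**Figure D2:**
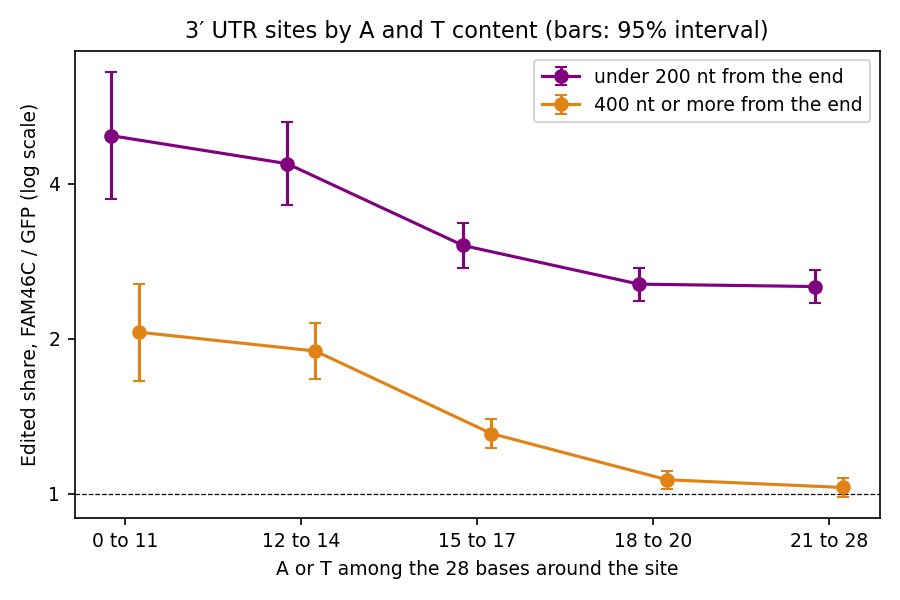
Ratio of the edited share with FAM46C-APOBEC1 to that with GFP-APOBEC1 (y axis, log scale) at 3′ UTR sites by the number of A or T among the 28 bases around the C (x axis), under 200 nt and at 400 nt or more from the transcript end. Bars are 95% intervals. The ratio is 4.95 and 2.06 in the class with fewest A or T and 2.52 and 1.03 in the class with most.

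Edited and unedited reads of each site were compared by Fisher's exact test, two-sided, with p-values adjusted by Benjamini-Hochberg over all sites. The test called 69 sites higher with FAM46C (0.458% of 15079) and 4 lower (0.0265%) at an adjusted p under 0.05. Set against the overall odds ratio of both libraries, 1.50, it called 25 higher (0.166%) and 12 lower (0.0796%). At an unadjusted p under 0.05 there were 413 and 126. The 69 sites lay in 47 genes, 66 of them in 3′ UTRs and 3 in coding sequence, in TENT5C, SYNGR1 and NDUFB2. Their median share went from 1.79% with GFP to 18.2% with FAM46C, and 18 had no edited read with GFP. A was the base before the C at 63 of them and T at 6. The 4 lower sites lay in the 3′ UTRs of SRSF1, LAPTM5, RAC1 and PCNP, at a median of 743 nt from the end, against 277 nt for the higher 3′ UTR sites.

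With reads added over the sites of each gene, the same test called 187 genes higher with FAM46C (4.25% of 4398) and 43 lower (0.978%). In the higher genes the median share went from 1.37% to 7.74%, and in the lower genes from 5.73% to 1.03%. Since the share over all reads was higher with FAM46C, each gene was also set against the odds ratio of all reads, 1.50. This test called 73 genes higher (1.66%) and 111 lower (2.52%), so the balance of the calls turned. The excess was not uniform: in the 3′ UTR beyond 400 nt the ratio of shares lay between 1.12 and 1.14. A lower call of this test therefore need not mean a lower share with FAM46C. All 73 were among the 187, and all 43 lower genes were lower again. Of the 187 higher genes 10 had 1 site, and in 35 of the 177 with several sites 1 site held over 50% of the FAM46C edits, as in 12 of the 42 such lower genes. At least 2 sites lay above GFP in 175 of these 177 genes, and at least 2 below in all 42 lower ones. The genes were called on the reads of these same sites, so these counts are no separate support. By size alone, 4.52% of genes were higher by at least 10 percentage points and 4.09% lower, as were 1003 sites (6.65%) and 651 sites (4.32%). Reads per gene moved with the calls: the median log2 ratio of FAM46C to GFP reads was 0.20 in the higher genes, 0.13 in the lower genes and 0.02 in all, and its part in the calls was not tested.

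Higher and lower genes differed in where their 3′ UTR sites lay. In the higher genes the median site was 223 nt from the end, and 46.4% of sites were under 200 nt. In the lower genes the median was 1151 nt, and 8.40% were under 200 nt. In genes that were not called the median was 703 nt and 22.4% were under 200 nt. These distances do not enter the test, but the calls rest on the same reads, whose ratio varied with distance. The contrast is therefore no separate support for the distance result.

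The smallest p-value after correction belonged to GNAS, the stimulatory G protein alpha subunit. Its 8 sites, all in the 3′ UTR of exon 13 of 13 on chromosome 20, had 22 of 1192 reads edited with GFP (1.85%, 1.22 to 2.78) and 214 of 1158 with FAM46C (18.5%, 16.4 to 20.8; adjusted p = 2.16e-42, Fisher's exact test, Benjamini-Hochberg). All 8 sites were higher and 6 were called on their own. The site 69 nt from the end, at position 58911123, went from 2.33% of 86 reads to 41.8% of 91. The site 297 nt from the end, at position 58910895, went from 7.52% of 226 to 38.6% of 223. Between them 3 sites had no edited read with GFP and 11.6% of 112, 8.43% of 166 and 7.78% of 180 reads with FAM46C. The excess was thus seen at all 8 listed GNAS sites, with 2 standing out.

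BUD23, the methyltransferase that modifies 18S ribosomal RNA, had 13 of 564 reads edited with GFP (2.30%) and 220 of 994 with FAM46C (22.1%, 19.7 to 24.8; adjusted p = 1.07e-28, Fisher's exact test, Benjamini-Hochberg). It had 7 sites higher, none lower and 5 called. The site at position 73697946 of chromosome 7, 266 nt from the end, went from 5.33% of 75 reads to 54.3% of 129. A neighbour at 73697990 had none of 74 reads with GFP, which allows up to 4.05%, and 22.6% of 133 with FAM46C. UBB, which encodes polyubiquitin, had 5 of 821 reads with GFP (0.609%) and 110 of 929 with FAM46C (11.8%, 9.92 to 14.1; adjusted p = 1.38e-22, Fisher's exact test). All 6 UBB sites, on chromosome 17, were higher, the site at 16382639 going from 1.85% of 162 reads to 24% of 175. ECH1, an enoyl-CoA isomerase of fatty acid breakdown, had 39 of 936 reads with GFP (4.17%) and 151 of 935 with FAM46C (16.1%, 13.9 to 18.6). All 11 ECH1 sites were higher, led by position 38815484 of chromosome 19, 62 nt from the end, with 15.2% of 105 reads and 57.8% of 102.

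**Figure D3:**
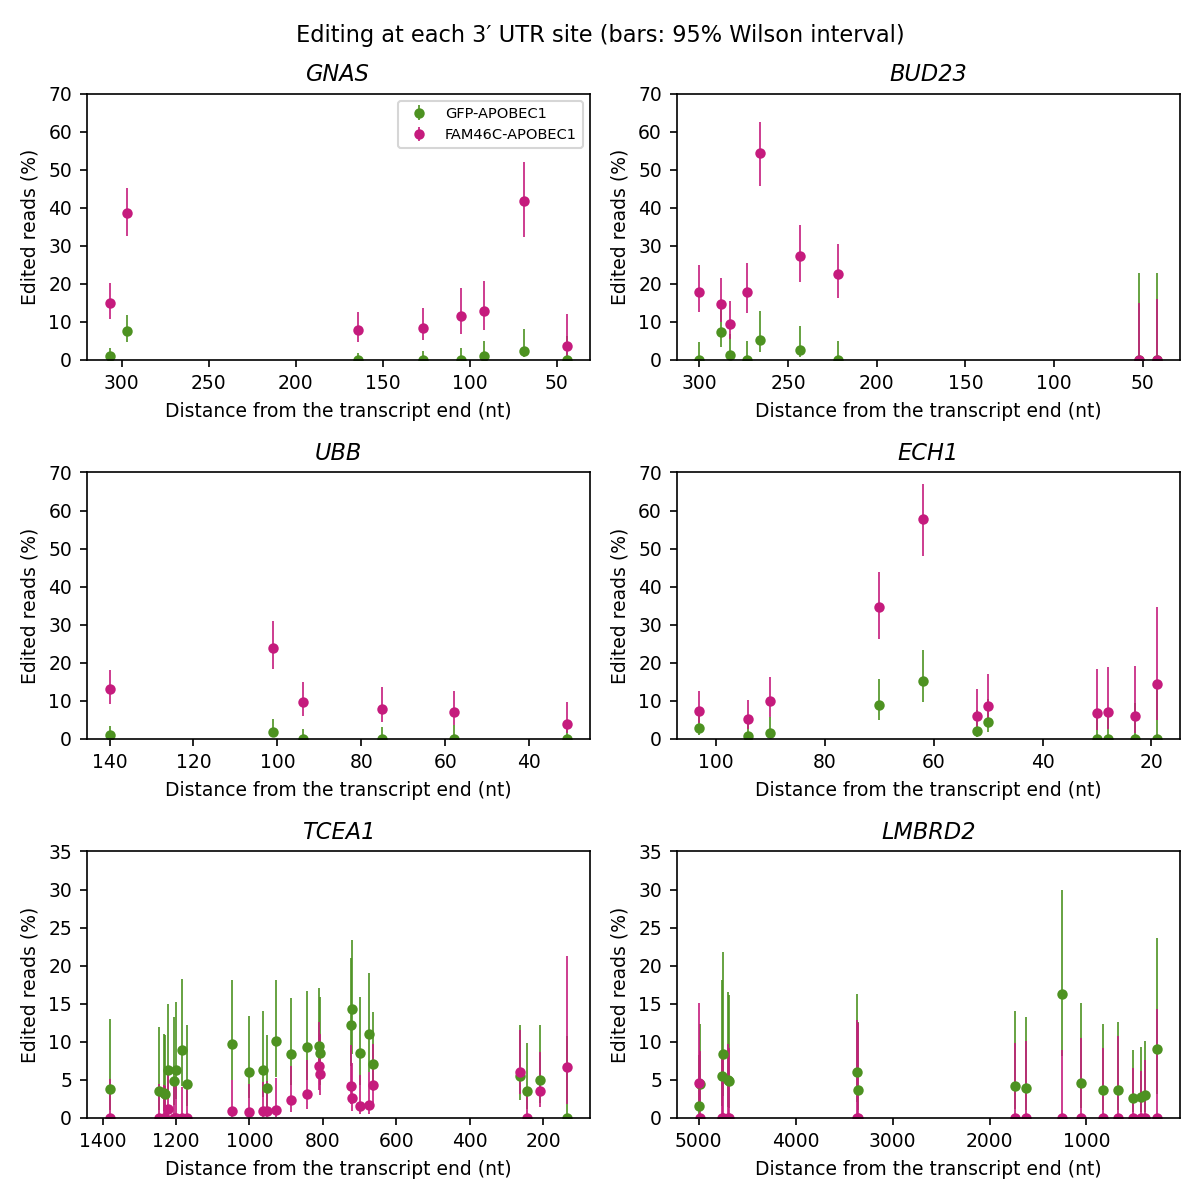
Edited reads in percent (y axis) at each 3′ UTR site against its distance from the annotated transcript end in nt (x axis, end to the right), for GNAS, BUD23, UBB and ECH1, called higher with FAM46C-APOBEC1, and TCEA1 and LMBRD2, called lower. Bars are 95% Wilson intervals, and the y axis runs to 70 in the upper 4 panels and to 35 in the lower 2. The highest points are 57.8% in ECH1 and 54.3% in BUD23.

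Of the 12 higher genes with the smallest p, 4 more had little editing with GFP. RPN2 went from 0.980% of 1123 reads to 8.19% of 1294, with 10 of 13 sites higher. SYNGR1, a synaptogyrin of vesicle membranes, went from 0.666% of 601 reads to 9.36% of 566. Its leading site, at position 39377662 of chromosome 22, lay in the coding sequence of exon 4 of 4, with 2.86% of 105 reads and 27.9% of 111. FUNDC2, of the outer mitochondrial membrane, went from 0.396% of 505 reads to 8.71% of 815. Its printed site lay 5411 nt from the annotated end, with 1.79% of 56 reads and 33.3% of 90. NPM1, a nucleolar chaperone, went from 1.11% of 1175 reads to 7.24% of 1146 with 18 of 20 sites higher and none called alone. NPM1, PABPC1 and RPS4X have near-identical pseudogenes, so their reads are uncertain.

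Of the higher genes with at least 50 reads, some had fewer sites but large differences. PKM, pyruvate kinase, went from 4.41% of 204 reads to 21.2% of 311, and PGAM1, phosphoglycerate mutase, from 7.58% of 132 to 25.2% of 131. PGAM1 was not called against the odds ratio of all reads. HINT1, a nucleotide hydrolase, went from 2.67% of 225 reads to 20.9% of 196, and NEDD8, a ubiquitin-like modifier, from 2.46% of 122 to 20.3% of 138. STOML2, of the inner mitochondrial membrane, went from 2.90% of 69 reads to 20.99% of 81 at its only site, and was not called against the odds ratio of all reads. The site with the largest difference after TENT5C was in SIVA1, a proapoptotic protein, at position 104759626 of chromosome 14, 31 nt from the end, with 4.76% of 21 reads and 57.1% of 28. MXD4, a MYC antagonist, had none of 45 reads at position 2250469 of chromosome 4 and 29.2% of 65. PRKCB, a protein kinase C, went from 3.57% of 56 reads to 29.3% of 99 at position 24215673 of chromosome 16. In MXD4 and PRKCB the site lay 3037 and 4938 nt from the end. None of these 3 sites was called against the odds ratio of all reads.

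Gene groups are described by counts beside those of all tested genes, of which 4.25% were called higher and 0.978% lower and whose median difference was 0. Of all tested genes 2113 were above GFP, 1502 below and 783 equal. A call depends on reads: the median was 478 FAM46C reads in the higher genes and 71 in all genes, of which 1706 had 1 site. The groups were not matched to all genes in reads, so a larger share of calls can reflect depth. The groups were drawn up with earlier results of these data known. Of the higher members named here, MPP1, E2F4, EIF4A1, PAIP2, HNRNPM, RPN1, SEC11A, SRP14, SEC13, TMED10, CTSL, CTSC, NPC2, PSAP, B2M, VDAC2, PSMD9, BNIP3L, TYMS and most respiratory chain genes were not called against the odds ratio of all reads. Among globins, the chains of haemoglobin, HBB was higher and the other 4 of 5 tested genes were not called. HBB had 38 of 876 reads edited with GFP (4.34%) and 164 of 855 with FAM46C (19.2%, 16.7 to 22.0; adjusted p = 3.95e-20, Fisher's exact test, Benjamini-Hochberg). All 3 of its sites, 32, 74 and 77 nt from the end, were called. HBG1 had none of 304 reads and 1.62% of 370, and HBG2 2.16% of 185 and 8.70% of 207, and these near-identical genes are uncertain. In the red cell membrane and skeleton 2 of 19 were higher: RHAG, the Rh-associated glycoprotein, from 5.36% of 373 reads to 19.4% of 510, and MPP1, a scaffold protein, from 1.87% of 481 to 7.74% of 594. The median of that group was 0.15 percentage points.

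Heme synthesis and iron genes had none higher of 16 and 1 lower, with a median of −0.33 points. The lower gene was ABCB10, a mitochondrial transporter needed for heme synthesis, with 3.23% of 1271 reads and 0.866% of 1386 and 14 of its 22 sites lower. CPOX, a heme synthesis enzyme, had 4.39% of 296 reads and 0.844% of 237 and was called lower only against the odds ratio of all reads. ALAS2, the erythroid first enzyme of the pathway, had 0.667% of 150 reads and none of 119. Of 7 erythroid transcription factors E2F4 was higher, from 1.85% of 540 reads to 6.93% of 462, with all 8 sites above GFP.

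Among genes of the endoplasmic reticulum and of secretion several were higher and none was lower by the test against no difference. Of 31 translocon, signal peptidase and oligosaccharyltransferase genes 7 were higher. RPN1 and RPN2 (ribophorins), TMEM258 and STT3A belong to the oligosaccharyltransferase, which puts glycans on entering proteins. SPCS1 and SEC11A belong to signal peptidase, and SRP14 to the signal recognition particle. TMEM258 went from 0.702% of 285 reads to 12.8% of 321, SPCS1 from 0.316% of 316 to 7.52% of 479, and STT3A from none of 268 to 5.39% of 464. RPN1 went from 2.41% of 415 reads to 8.72% of 963. That group's median was nevertheless 0.33 points, since 18 members were above GFP and 10 below. Of 25 chaperones TXNDC12, a thioredoxin-domain protein, went from 0.157% of 636 reads to 4.57% of 1138, and HSP90B1, or GRP94, from 0.685% of 292 to 8.13% of 406. Of 28 COPI, COPII and p24 genes COPA, SEC13 and TMED10 were higher, COPA from 0.787% of 762 reads to 5.56% of 1313.

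Of 14 secreted proteins tested 4 were higher, with a median of 2.46 points. MFGE8, a milk fat globule protein, had none of 43 reads with GFP, which allows up to 6.98%, and 40% of 60 with FAM46C (28.6 to 52.6). CST3, cystatin C, went from 0.713% of 701 reads to 6.87% of 699, and TIMP1, a metalloproteinase inhibitor, from 0.870% of 345 to 7.82% of 243. B2M, the light chain of MHC class I, went from 6.78% of 2125 reads to 13.01% of 2021 with all 14 sites above GFP. Of 43 lysosomal genes 7 were higher, and the median was 2.67 points. They included the cathepsins CTSL, CTSC and CTSZ, CST3 again, GM2A, an activator of ganglioside breakdown, NPC2, a cholesterol carrier, and PSAP. CTSZ went from none of 322 reads to 4.04% of 421 and GM2A from 0.906% of 331 to 7.02% of 413.

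Mitochondrial genes also held called genes. Of 49 respiratory chain genes 9 were higher and 1 lower, 41 were above GFP and 7 below, and the median was 3.70 points, the largest of any group. Complex I gave NDUFC1, NDUFC2, NDUFB2, NDUFB4, NDUFB10 and NDUFA7, and ATP synthase gave ATP5F1E, ATP5MPL and ATP5PB. NDUFB10 went from 0.719% of 139 reads to 12.2% of 131, and NDUFC1 from 1.52% of 396 to 8.50% of 553. Only NDUFC1 and NDUFB10 were also higher against the odds ratio of all reads. NDUFA5, another complex I subunit, was lower, with 4.66% of 1480 reads and 2.38% of 1977 and 19 of 25 sites below GFP. Of 23 import genes 5 were higher and none lower. TOMM6 and TOMM40 of the outer membrane translocase went from 0.433% of 231 reads to 11.3% of 291 and from none of 129 to 9.66% of 145. HSPE1, the small chaperonin, went from 2.92% of 240 to 16.9% of 195, HSPA9, the matrix HSP70, from 2.37% of 338 to 11.6% of 370, and VDAC2, a porin, from 0.319% of 313 to 4.31% of 371.

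**Figure D4:**
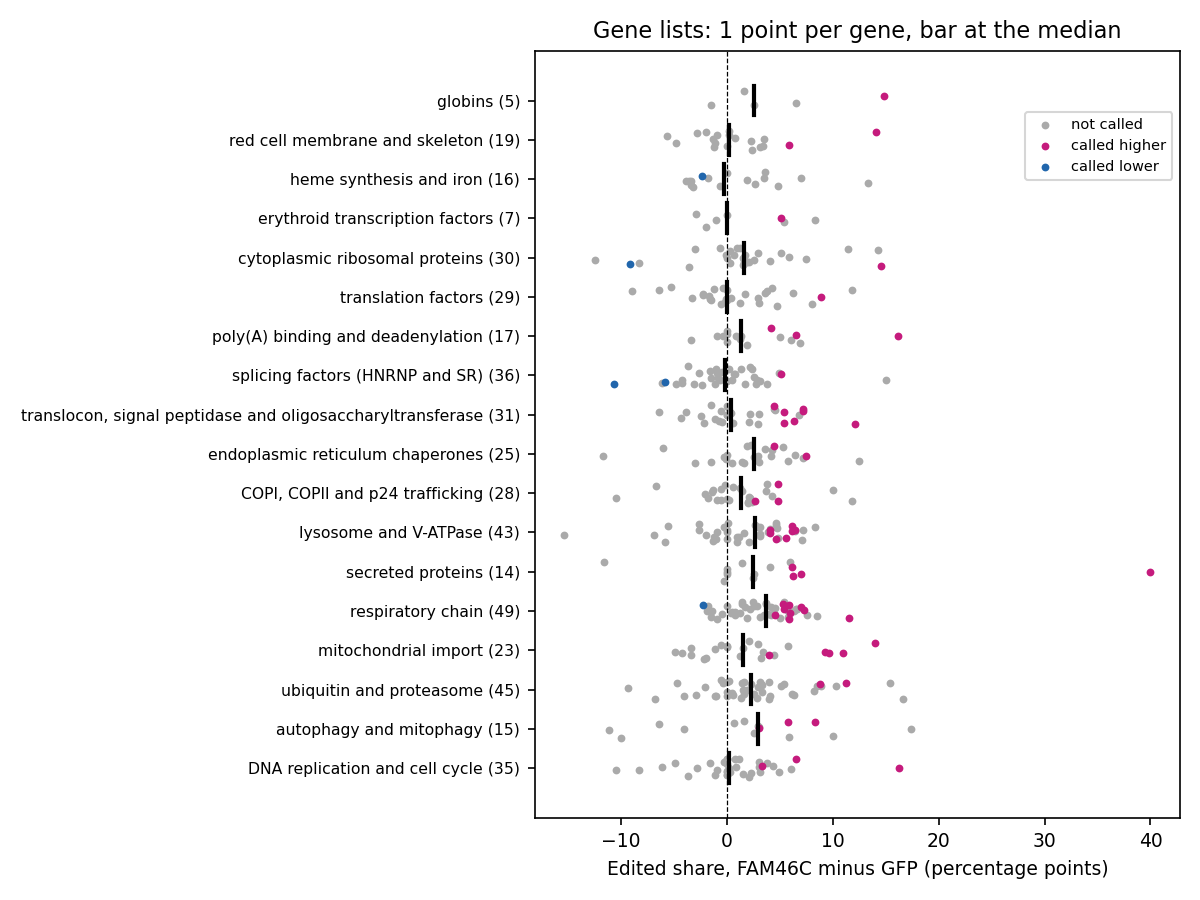
Difference in edited share, FAM46C-APOBEC1 minus GFP-APOBEC1, in percentage points (x axis) for the tested genes of 18 groups (y axis, with the number tested). Each point is 1 gene, coloured by its call, and black bars are medians. TENT5C, at 86.1 points, is left out of the drawing, MFGE8 stands at 40 points, and the respiratory chain has the highest median, 3.70.

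Poly(A) binding and deadenylation genes gave 4 higher of 17, TENT5C among them. PABPC1, the main cytoplasmic poly(A)-binding protein, went from 1.87% of 481 reads to 18.1% of 465 (adjusted p = 7.00e-16, Fisher's exact test, Benjamini-Hochberg). PABPN1, its nuclear counterpart, went from none of 207 reads to 6.56% of 183, and PAIP2, an inhibitor of PABPC1, from 1.08% of 372 to 5.23% of 631. Of 30 ribosomal protein genes RPS4X was higher, from 3.33% of 510 reads to 17.9% of 503, and RPS23 lower, with 10.4% of 193 and 1.18% of 169. The median of the ribosomal genes was 1.58 points. Of 29 translation factors EIF4A1, an RNA helicase, was higher, from 1.04% of 193 reads to 9.95% of 191, and the median was 0.

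Splicing factors had a median of −0.22 points over 36 genes, with 1 higher and 2 lower. HNRNPM went from 2.96% of 575 reads to 8.05% of 534. SRSF1 went from 11.2% of 196 reads to 0.552% of 181 at its only site, and HNRNPA0 from 6.8% of 250 to 0.926% of 216. Against the odds ratio of all reads 6 splicing factors were lower and none higher, beside 2.52% lower and 1.66% higher of all tested genes. That reference eases lower calls in any group. Of 45 ubiquitin and proteasome genes UBB and PSMD9 were higher, and 32 were above GFP. Of 15 autophagy genes FUNDC2, ATG3 and BNIP3L were higher. ATG3, which lipidates LC3, went from 0.787% of 635 reads to 6.55% of 687, and BNIP3L, the receptor for mitochondrial clearance in red cells, from 2.79% of 1683 to 5.80% of 1846. Of 35 replication and cell cycle genes CDK4, RRM1 and TYMS were higher. CDK4 went from 2.30% of 217 reads to 18.6% of 237 at its only site, and RRM1, of ribonucleotide reductase, from 1.81% of 386 to 8.35% of 683.

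The lower gene with the smallest p was TCEA1, a transcription elongation factor. It had 151 of 2087 reads edited with GFP (7.24%, 6.20 to 8.43) and 61 of 2845 with FAM46C (2.14%, 1.67 to 2.74; adjusted p = 1.89e-15, Fisher's exact test, Benjamini-Hochberg). No TCEA1 site was called alone, but 25 of 27 were below GFP. LMBRD2, a membrane protein, went from 4.70% of 937 reads to 0.292% of 684 with 17 of 18 sites below, and QKI, an RNA-binding protein, from 9.54% of 325 to 1.34% of 299 with 11 of 11 below. DCK, deoxycytidine kinase, had 17 of 111 reads with GFP (15.3%) and none of 150 with FAM46C, which allows up to 2%.

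The remaining lower genes of the 12 with the smallest p went the same way. C11orf58 went from 5.92% of 574 reads to 1.20% of 1003, CCNG1, cyclin G1, from 3.79% of 975 to 0.543% of 920, and FAR1, a fatty acyl-CoA reductase, from 4.19% of 644 to 0.203% of 492. LYPLA1, a thioesterase, went from 3.56% of 1095 to 0.836% of 1316, BNIP2 from 13.8% of 174 to 1.56% of 192, and LAPTM5, a lysosomal membrane protein, from 9.06% of 342 to 1.34% of 373. PCNP went from 5.56% of 1242 to 1.95% of 1591, and its printed site from 20.4% of 49 reads to none of 61. RAC1, a small GTPase, had a called lower site at position 6403395 of chromosome 7, with 22.7% of 88 reads and 5.19% of 135, but only 7 of its 14 sites were below GFP.

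The FAM46C-APOBEC1 fusions with longer linkers were compared with the same GFP library, so their values stand here only side by side. GNAS had 12.4%, 12.8% and 4.24% of reads edited with linkers of 27, 52 and 74 aa, against 18.5% with 7 aa. HBB had 14.4%, 12.1% and 6.21%, and UBB 9.07%, 8.30% and 2.90%. HSPE1 had 4.04%, 3.41% and 1.85%, against 16.9% with 7 aa and 2.92% with GFP. TCEA1 had 1.98%, 2.02% and 1.06%, and LMBRD2 no edited read of 542, 559 and 719.

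The 7 aa pair with ADARcd, the catalytic domain of the A-to-I deaminase ADAR, shares no library with this one. In it 2 of 3508 genes were called higher with FAM46C (0.057%) and 121 lower (3.45%) by the same test. Of the 187 genes called higher with APOBEC1 48 were measured there. Of these 14 were above GFP (29.2%), 20 below (41.7%) and 14 equal, with none called higher and 2 called lower. Over all 1971 genes measured in both pairs 14.5% were above, 41.3% below and 871 genes equal, with 1 called higher and 97 called lower. Of the 43 genes called lower with APOBEC1 18 were measured, of which 11 were below (61.1%), 1 above and 6 equal. Of these 18 genes 5 were called lower, QKI among them with 4.41% of 340 reads and none of 347. These sets were not matched in reads, on which ties and calls depend, so their shares are not directly comparable. PKM, called higher here, was called lower there, with 7.60% of 645 reads and 2.43% of 740.

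The authors' deposited table for this fusion lists 516 sites in 384 genes. In the authors' deposited table stood 158 of the 187 genes called higher here (84.5%), which is 41.1% of its genes. None of the 43 lower genes stood in it. Of all 4398 genes tested here it lists 329. It compares the same fusions, so the overlap is no independent support. It also holds 68 of the 69 sites called higher here.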

How the data were processed

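Per the labels, poly(A) RNA was extracted with Trizol from HUDEP-2 cells and sequenced, with 1 library per construct. The authors deposited, per library, unnormalised counts of reads with the reference base and with the edited base at each position, on GRCh38. Picard 2.27.1, HISAT2 2.2.1 and SAMtools 1.18 appear, without roles, in the submitters' processing notes. How sites were chosen was not given in the sources used here. A p-value per site in the authors' deposited table was used only through its list of sites and genes. Its 6 per-sample columns, 48 in all such tables, match no single label and were not used.

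Sites with at least 10 reads in both libraries were placed with GENCODE release 29 basic transcripts, preferring transcripts with C at the site and then protein-coding ones, each site in 1 gene. A position with 2 records per file was left out. Edited shares add reads over sites. Shares have 95% Wilson intervals, ratios intervals on the log scale, and 0 edited reads the limit that 3 counts allow. Two-sided Fisher's exact tests with Benjamini-Hochberg adjustment over all sites or genes (threshold 0.05) were computed with scipy 1.17.1 under Python 3.11.15, and tested on simulated data. Reads counted at several sites of a gene overlap, which makes gene p-values too small. Distances are spliced, to the end of the chosen transcript. Sequences come from the GENCODE transcripts.

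Named genes were TENT5C, the 12 higher and 12 lower genes with the smallest p, the 8 further higher genes with the largest difference and at least 50 reads, the genes of the 12 higher and 6 lower sites with the largest difference, and up to 6 called members (otherwise the 2 with most reads) of each of 19 gene lists with 795 entries. A few further list members are named as called or marker genes. The members and lists were chosen with earlier results of these data known. Alternatives were minimum reads of 5, 20 and 50, a test against the odds ratio of all reads, a one-sided test, other size and distance limits, 3′ UTR sites only, and leaving out variant-like sites (over 40% in every APOBEC1 library), sites without C or sites in several genes. Distance to the nearest annotated end, adding the 2 records and leaving out TENT5C were chosen after seeing the data.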

Additional observations from a re-analysis of the deposited data

How the results depend on the processing

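No paired analysis was possible because each construct had 1 library and no replicate number. Against the odds ratio of all reads, 25 sites were higher and 12 lower, and 73 genes were higher and 111 lower, and 44 of the 73 called sites and 22 of the 80 named genes lost their call. With at least 50 reads per site, in 4072 sites, 7 sites and 26 genes were lower, and 120 sites and 23 genes were higher and 14 sites and 1 gene lower by 10 points. The ratio over all sites was then 1.61, in the 3′ UTR 1.60, in coding sequence 1.35, in 5′ UTRs 0.459, in non-coding exons 1.62, from 200 nt to under 400 nt 1.87, from there to under 800 nt 1.24 and at 1600 nt or more 1.33. Near and far odds ratios in the same genes were then 1.19 and 1.23, and 17 named genes lost their call, among them LMBRD2, FAR1, HSPE1, COPA, TXNDC12, HSP90B1 and STT3A. With at least 20 reads the 10-point counts were 393 and 147 sites and 56 and 15 genes, the ratio over all sites was 1.51, and RPS23, HNRNPA0, VDAC2 and PSMD9 lost their call. With 3′ UTR sites only NDUFB2 lost its call, and without sites in several genes PAIP2 did. With at least 5 reads 291 genes were lower by 10 points. A limit of 20 points left 116 and 43 sites and 10 and 14 genes. The ratio of mean site shares was 1.33. Measured to the nearest annotated end, the ratios from the end outwards were 2.34, 2.53, 1.92, 1.49, 1.04, 0.905 and 0.951, and the far odds ratio was 0.913. With near under 100 nt and far 800 nt or more the odds ratios were 2.79 and 1.17. TENT5C changed direction, to −10.5 points, with 3′ UTR sites only, which drop its coding site. The cause of the other shifts was not tested. Without the TENT5C sites the overall ratio was 1.46 and the coding ratio 1.10, and adding the 2 records left the counts of calls at 69, 4, 187 and 43. At a median of 38 reads per site with GFP, a share of a few percent rests on 1 or 2 edited reads.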

Other observations

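Among the called sites outside the named rule, some in other kinds of gene are given here, chosen after their values were seen. APLP2, related to the amyloid precursor, had none of 131 reads edited with GFP at position 130143595 of chromosome 11 and 14.7% of 156 with FAM46C. TPSAB1, a mast cell tryptase with near-identical copies whose reads are uncertain, had 0.725% of 138 reads at position 1242457 of chromosome 16 and 15.9% of 145. TAGLN2, an actin-binding protein, had 2 called sites, with 1.75% of 228 reads and 11.6% of 241 at position 159918619 of chromosome 1 and 1.32% of 228 and 11.1% of 244 at position 159918613. Those 2 sites had 4.60% and 2.94% of reads edited with the 27 aa linker, and 0.847% and none with the 74 aa linker. YWHAB, a 14-3-3 protein, had none of 85 reads at position 44906544 of chromosome 20, 1988 nt from the nearest annotated end, and 13.4% of 127.

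Some members of the gene groups passed only the test against the odds ratio of all reads, all of them in the lower direction. That direction follows from the test, since a reference above no difference eases lower calls and hinders higher ones. It is no finding about these genes. Among splicing factors these were HNRNPR, with 8.59% of 675 reads and 4.94% of 809, SYNCRIP, with 5.59% of 662 and 2.47% of 687, SRSF2, with 6.67% of 330 and 2.45% of 327, and SRSF10, with 4.37% of 481 and 1.76% of 454. Among other groups they included LAPTM4B, a lysosomal membrane protein, with 10.6% of 699 and 8.58% of 816, TOMM20, of the import receptor, with 5.73% of 1431 and 3.57% of 1063, and SEC62, of the translocon, with 3.85% of 286 and none of 225.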
